A study of Mus musculus with 12 samples.

Results

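Genes listed as targets of the transcription factor p53 in growth arrest were followed through 12 RNA libraries of mouse cells. The 10 genes, Cdkn1a, Mdm2, Mdm4, Btg2, Ccng1, Gdf15, Sesn1, Phlda3, Trp53inp1 and Plk2, were taken from a list of gene names. Each matched a single gene among the 54100 features that all count files list. The 12 libraries form 6 groups of 2, and each treated group has its own control.

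In the first set the cells carry the label BMDM (bone marrow-derived macrophages) and a TREX knockout, on the strain C57BL/6J. SSTC3, a small molecule described as activating the kinase CK1α, was given to 2 of these libraries, and DMSO, its solvent, to the other 2. The TREX number differs in all of them: TREX1-KO and TREX2-KO stand on the SSTC3 libraries, TREX3-KO and TREX4-KO on the DMSO libraries. The labels do not say whether these numbers name different knocked-out genes or only run on from one library to the next. Taken as written, compound and TREX number cannot be told apart. In the other sets the cells are labelled MEF (mouse embryonic fibroblasts), also on C57BL/6J, with CK1α overexpression or its control, and CK1α knockdown by siRNA or its control. No dose, time, construct, siRNA sequence or animal age is given in the labels, and none says that the 2 libraries of a group came from separate cultures. The p-values therefore rest on a spread between libraries that may be technical alone. With 2 libraries a group, groups can lie apart without a change, and the share of all genes where they do was not counted.

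The protein p53 sits at the centre of a loop. Damage or stress frees it from Mdm2, a ligase that marks it for destruction, and from Mdm4, a relative of Mdm2 that blocks its activity, and p53 then raises its own inhibitor Mdm2 together with genes that stop the cell cycle. In fibroblasts the best known of these is Cdkn1a, which encodes the inhibitor p21 of cyclin-dependent kinases. CK1α is known to act with Mdm2 and Mdm4 on p53, and its loss is known to raise p53 activity in other tissues. Several of the 10 genes, Btg2, Plk2, Cdkn1a and Gdf15 among them, are also known to respond to growth factor or stress signals that need no p53.

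Library totals ran from 16063627 to 19427506 counts. Levels are given as CPM, counts scaled to the library total, and changes as log2 fold changes of treated over control libraries from edgeR with a standard error (SE) and a Benjamini-Hochberg adjusted p over all genes tested, called at 0.05. The targeted gene Csnk1a1, which encodes CK1α, had 171.5 and 169.2 CPM with knockdown against 325.0 and 354.1 CPM in its controls (log2 fold change −0.96 ± 0.05, adjusted p = 2.94e-27). In the libraries labelled CK1a overexpression it had 229.3 and 244.4 CPM against 237.8 and 234.7 CPM (−0.01 ± 0.04, adjusted p = 0.901), so no higher level was measured, and each direction drawn from that set rests on its label. Trex1 had 0 counts in all 12 libraries, including the MEF libraries, which carry no TREX knockout label. The value therefore cannot check the knockout label, and its cause was not tested. In the set labelled BMDM the sum of 21 macrophage markers was 10.8 to 14.2 CPM, with 10 to 14 of them at 0 and Adgre1 and Itgam at 0 in all 4 libraries, while the sum of 14 fibroblast markers lay between 8712 and 9976 CPM. The data thus go against the label BMDM. Both MEF sets had less of the fibroblast markers, 4436 to 5056 CPM with the overexpression label and 4064 to 4838 CPM in the knockdown experiment. Their macrophage marker sums were 21.8 to 23.9 CPM and 270.3 to 326.3 CPM, the latter mostly from Cd68 (246.0 to 296.0 CPM).

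On mm10 (GENCODE M21), Cdkn1a lies on chromosome 17 from 29090976 to 29100727 on the plus strand, Mdm2 on chromosome 10 from 117688875 to 117710758 on the minus strand, Btg2 on chromosome 1 from 134075170 to 134079120 on the minus strand and Plk2 on chromosome 13 from 110395046 to 110400844 on the plus strand. Ccng1 lies on chromosome 11 from 40748552 to 40755311, Gdf15 on chromosome 8 from 70629393 to 70632456 and Mdm4 on chromosome 1 from 132959484 to 133030561, all on the minus strand. Sesn1 lies on chromosome 10 from 41809935 to 41908424, Phlda3 on chromosome 1 from 135766119 to 135769136 and Trp53inp1 on chromosome 4 from 11156431 to 11174379, all on the plus strand. Counts cover all exons of a gene, and only those of Cdkn1a overlap the exons of another annotated gene. Promoter sequences of the members came from RefSeq (build GRCm38.p6, which is mm10), where 9 of the 10 genes matched, with 13 windows of 300 bases (250 before to 50 after a start site). A full p53 response element, a pair of half-sites of 10 bases with a spacer of at most 13, was found in 1 of these windows and in 24 of all 32851 windows (0.0731%). It lies before the upstream start site of Cdkn1a. A looser form, chosen after the windows were seen, allows 1 mismatch in 20 bases with no spacer and is held by 29 windows (0.0883%), among them those of Cdkn1a and Ccng1. The stretches are shown because these 2 genes are the members with an element in a searched window, and they moved in opposite directions with CK1α knockdown. Sequence outside the windows was not searched, and Trp53inp1 had no window. A missing match therefore does not show that a member lacks a p53 element. In the first, at chr17:29090886-29090967 on the plus strand, capitals mark the half-sites: the first and the middle one form the full element, and the middle and the last one, which touch, form the looser one. In the second, at chr11:40755442-40755501 on the minus strand, capitals mark the element with 1 mismatch.
Cdkn1a: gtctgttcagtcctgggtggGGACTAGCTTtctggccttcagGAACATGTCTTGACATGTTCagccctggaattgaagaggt
Ccng1: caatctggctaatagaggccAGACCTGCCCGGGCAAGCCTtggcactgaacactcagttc

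The cAMP response element, TGACGTCA on either strand, was held by 1.79% of all windows and by those of Btg2 and Plk2. These stretches are shown because both genes were among the strongest movers in opposite directions with SSTC3 and with knockdown. Capitals mark the element in the stretch of Btg2 at chr1:134079294-134079341 on the minus strand and in that of Plk2 at chr13:110394962-110395009 on the plus strand.
Btg2: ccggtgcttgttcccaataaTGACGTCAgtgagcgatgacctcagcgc
Plk2: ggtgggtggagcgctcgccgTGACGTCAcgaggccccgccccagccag

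Other fixed motifs were searched on both strands in the same windows. Btg2 and the second start site of Sesn1 held the EGR motif GCGNGGGCG (5.55% of all windows), which shares letters with the SP1 motif. The SP1 motif GGGCGG (35.7% of all windows) was present before Cdkn1a's downstream start site and in the windows of Mdm2, Btg2, Sesn1, Phlda3 and Plk2. One Mdm4 window held the AP-1 motif TGANTCA (7.81%). The CArG box (1.63%), the motif TGATGNAA of the stress factor ATF4 (3.97%) and TATAAA (13.6%) had no match in a member's window, and neither window of Gdf15 held any of the motifs. A match is only a match of letters, and the counts per gene do not separate the 2 start sites of Cdkn1a.

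**Figure D1:**
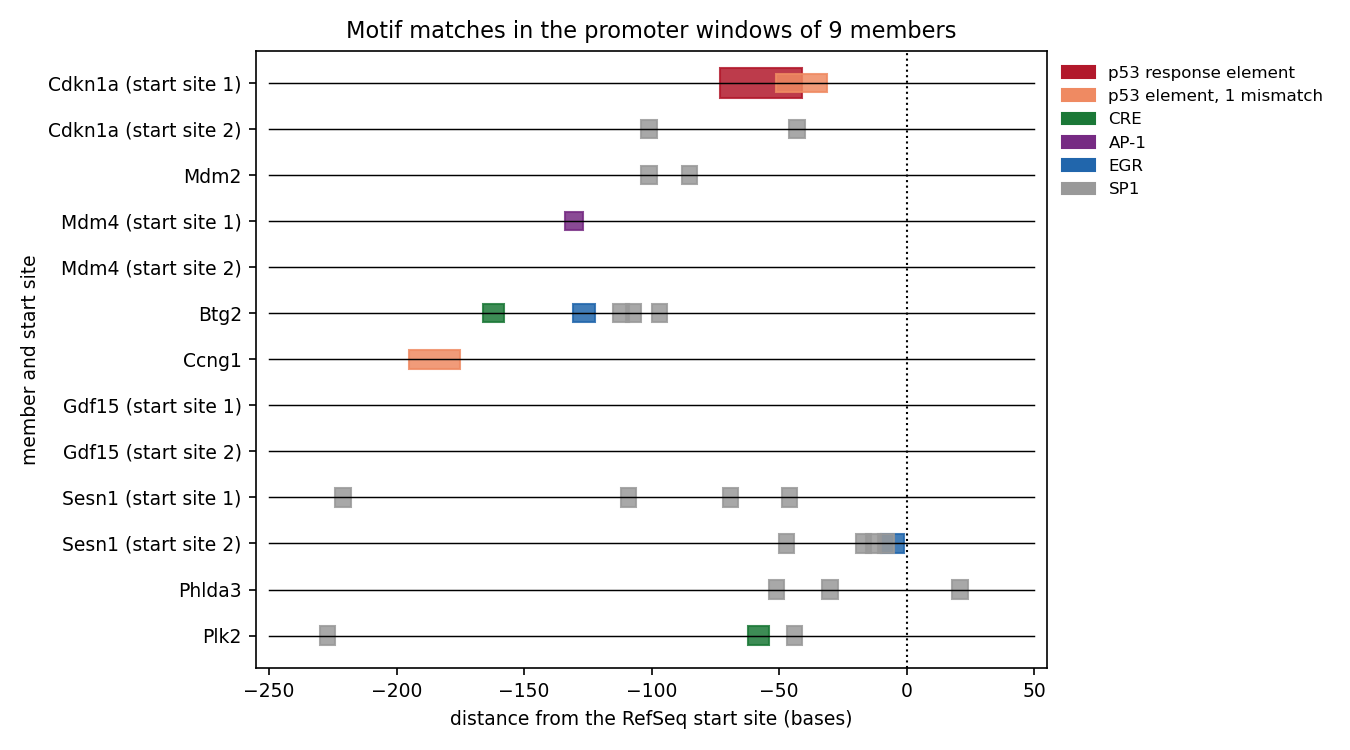
Positions of motif matches in the 13 promoter windows of 9 members; the x axis is the distance from the RefSeq start site in bases, each line is 1 window, each box 1 match, and start sites of a gene are numbered by genome position. The full p53 element (tall box) appears only at the upstream start site of Cdkn1a, from −73 to −42, and the element with 1 mismatch there and in Ccng1, from −195 to −176.

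The SSTC3 libraries were set against the DMSO libraries, and whether CK1α was activated in them was not measured. All 10 members passed the threshold: 8 rose with SSTC3 and 2, Mdm4 and Sesn1, fell. Over all 14151 genes tested, 27.1% were called higher and 26.5% lower. Among the 627 genes that also passed a test for a change of at least 2-fold, 570 were higher and 57 lower, so the larger changes with SSTC3 were mostly rises across all genes. The median log2 fold change of the members was 2.36, against 0.01 over all genes tested. Gdf15, Btg2, Cdkn1a and Plk2 had the largest changes, and the inhibitor Mdm2 rose while its relative Mdm4 fell.

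Among the genes that slow division, Cdkn1a had 397.9 and 413.6 CPM with SSTC3 and 38.5 and 40.0 CPM with DMSO. Both SSTC3 libraries lay far above both DMSO libraries, and the log2 fold change was 3.42 ± 0.05 (adjusted p = 4.46e-164, 2 libraries a group). Btg2, an antiproliferative cofactor of mRNA deadenylation, had 153.3 and 164.4 CPM against 8.91 and 10.6 CPM. Its groups did not overlap, and the change of 4.08 ± 0.08 was above that of Cdkn1a (adjusted p = 9.47e-138). Plk2, a polo-like kinase induced early after stimulation, had 401.2 and 410.4 CPM against 50.6 and 49.5 CPM. It rose by 3.08 ± 0.05 with no overlap of the groups (adjusted p = 6.07e-157).

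Gdf15, a secreted stress hormone of the TGF-β family, was close to absent in these cells. It had 40 and 30 counts with SSTC3 (2.36 and 1.77 CPM) and 1 and 2 counts with DMSO (0.0586 and 0.119 CPM). The ratio of the summed counts was 23.3, with an exact 95% interval of 7.65 to 116 that covers counting error only. The fitted change was 4.49 ± 0.65 (adjusted p = 2.46e-10), and with so few counts its size is poorly known.

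Of the inhibitors of p53, Mdm2 had 339.2 and 345.0 CPM with SSTC3 against 73.1 and 70.8 CPM with DMSO. It rose by 2.31 ± 0.05 (adjusted p = 8.86e-131). Mdm4 went the other way, with 77.4 and 78.5 CPM against 115.3 and 123.3 CPM. Both SSTC3 libraries lay below both DMSO libraries, a change of −0.56 ± 0.06 (adjusted p = 4e-19). Ccng1 encodes cyclin G1, which recruits a phosphatase to Mdm2. It had 133.5 and 127.8 CPM against 62.7 and 62.8 CPM and rose by 1.11 ± 0.06 (adjusted p = 1.97e-51).

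Trp53inp1, a cofactor of p53 with a part in autophagy, had 52.5 and 52.8 CPM with SSTC3 against 9.68 and 10.9 CPM with DMSO. It rose by 2.41 ± 0.10 (adjusted p = 5.38e-68). Phlda3, which holds back the kinase Akt, had 66.3 and 66.4 CPM against 35.6 and 34.0 CPM. Its rise of 0.99 ± 0.07 was the smallest of the 8 (adjusted p = 7.51e-31). Sesn1, a sestrin that restrains mTORC1, had 20.5 and 20.3 CPM against 29.2 and 30.5 CPM. Its fall, −0.49 ± 0.10, again came without overlap (adjusted p = 3.67e-06).

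Trp53, which encodes p53 itself, had 283.7 and 288.9 CPM with SSTC3 and 332.6 and 303.6 CPM with DMSO (−0.10 ± 0.04, adjusted p = 0.0313). Of 22 regulators of p53 tested, 8 rose, 9 fell and 5 did not pass. Among them, Sirt1, a deacetylase, was at 1.28 ± 0.06 and Ppm1d, a phosphatase that p53 also induces, at 0.99 ± 0.09. Huwe1 was at −0.34 ± 0.04. Among p53 targets of cell death, 8 of 12 rose and 1 fell, with Pmaip1 at 4.50 ± 0.10 and Bbc3 at 1.98 ± 0.11, 2 genes of the Bcl-2 family that promote apoptosis. Their median was 0.50. Targets in repair and metabolism rose in 10 of 25 cases and fell in 3, with a median of 0.14, led by Gadd45a at 3.32 ± 0.14 and Sesn2 at 2.35 ± 0.06.

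All 17 immediate early genes rose with SSTC3 in the same libraries, with a median of 4.46 and Egr1 at 8.80 ± 0.06. Of 17 genes of the integrated stress response 16 rose and none fell, with a median of 1.19. The lists overlap: Atf3 is counted in both of these, and Sesn2 also among the repair and metabolism targets. The part of either response in the rise of the members was not tested. Of 13 fibroblast markers tested 3 rose and 8 fell in these libraries, and their part was not tested either. Cell cycle genes were split, with 13 of 34 higher and 15 lower: Cdc6, which loads replication origins, rose by 1.28 ± 0.06 on the log2 scale, and the mitotic cyclin Ccnb1 fell by 0.70 ± 0.04. A gene on the opposite strand, AC167363.2, overlaps 7.7% of the exon length of Cdkn1a and had 187 and 188 counts with SSTC3 against 5 and 10 with DMSO. Since the strand setting is not given in the sources used here, reads of the 2 genes may not be told apart. Cdkn1a had 6758 and 7013 counts with SSTC3, and the part of the overlap in its rise was not tested.

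**Figure D2:**
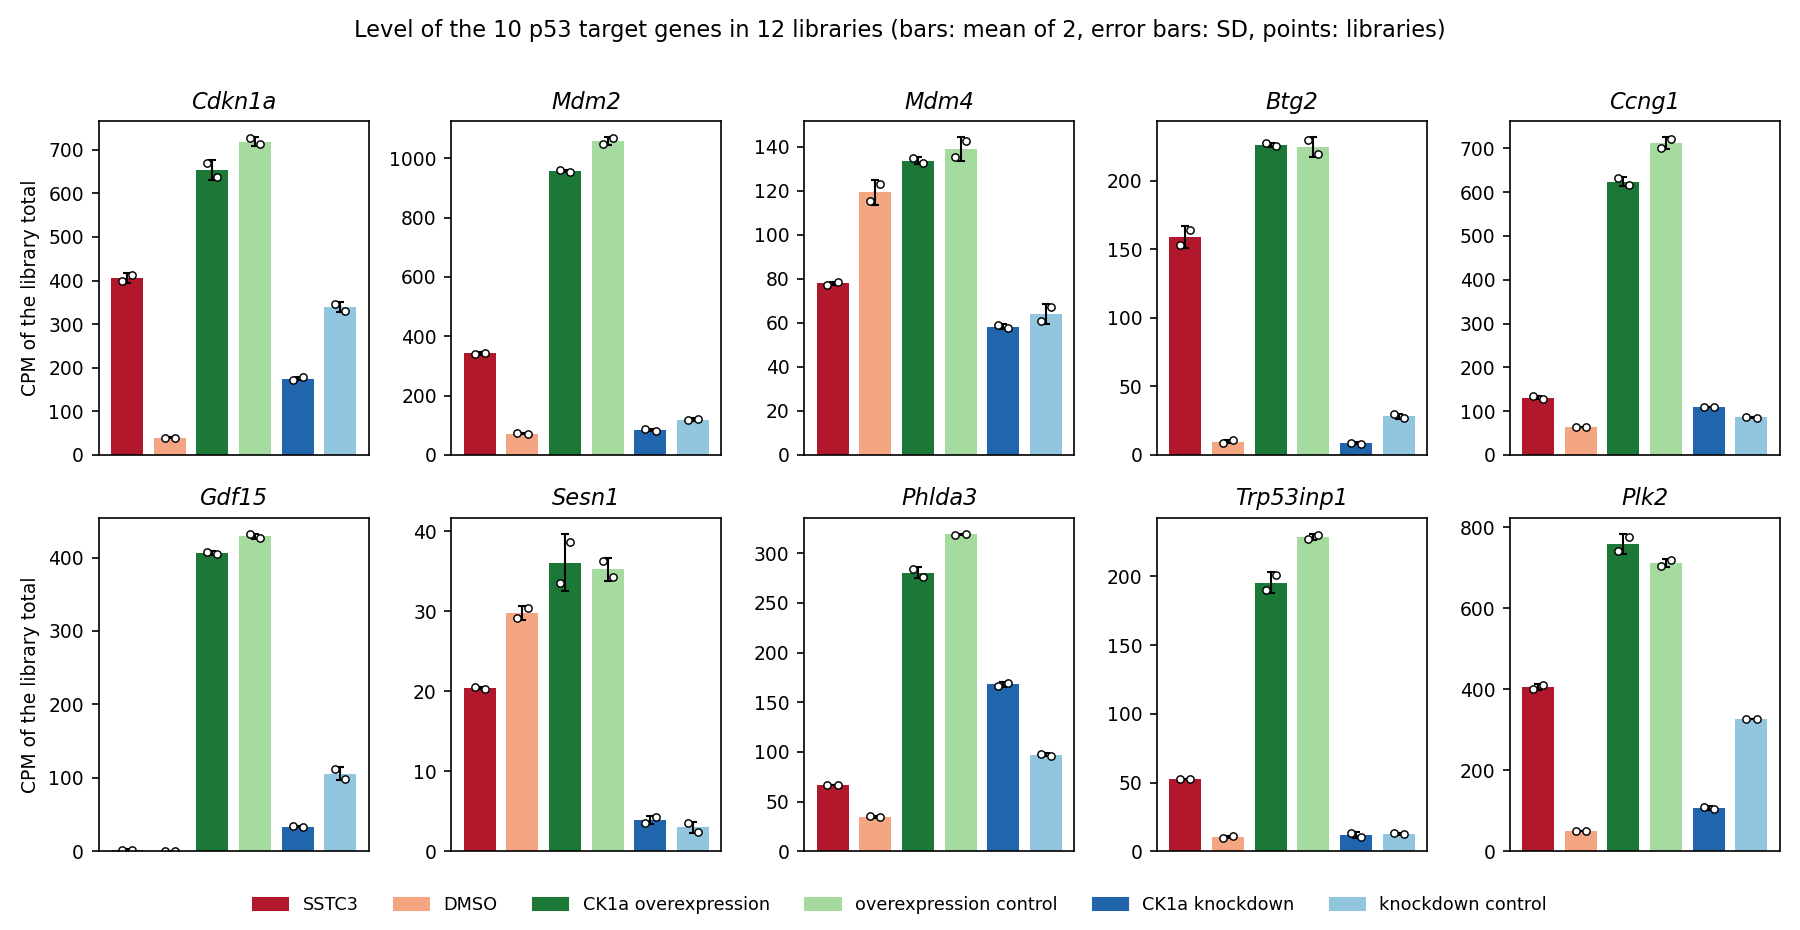
Level of each of the 10 members, in CPM of the library total, in the 6 groups; bars are means of 2 libraries, error bars the SD and points the libraries, and each panel has its own axis from 0. Cdkn1a stands at 405.8 with SSTC3 against 39.3 with DMSO, and at 175.2 with knockdown against 338.5 in its control, and the overexpression set holds the highest bar of every gene.

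The knockdown comparison asks what less CK1α does in cells labelled MEF. The members split: 5 fell, namely Cdkn1a, Mdm2, Btg2, Gdf15 and Plk2, while Ccng1 and Phlda3 rose and Mdm4, Sesn1 and Trp53inp1 did not pass. Over all 14832 genes tested, 28.3% were called higher and 26.4% lower, so the 2 rises are a share near the background. The median of the members was −0.28, against −0.01 over all genes tested.

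Cdkn1a had 172.5 and 177.9 CPM with knockdown against 346.6 and 330.4 CPM in the controls. Its level was lower in both knockdown libraries, a change of −0.91 ± 0.05 (adjusted p = 1.35e-26). The largest falls were in Btg2, Gdf15 and Plk2. Btg2 had 9.06 and 8.31 CPM against 29.6 and 26.8 CPM (−1.66 ± 0.12, adjusted p = 1.13e-18). Plk2 had 110.3 and 104.1 CPM against 326.0 and 326.8 CPM (−1.57 ± 0.05, adjusted p = 5.85e-38). In neither gene did the groups overlap. Gdf15, unlike in the SSTC3 set, was well expressed here, with 33.8 and 33.0 CPM against 111.6 and 99.0 CPM. Both knockdown libraries were below both controls (−1.62 ± 0.07, adjusted p = 3.21e-29).

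Mdm2 had 87.8 and 81.4 CPM with knockdown against 116.2 and 122.0 CPM in the controls. The 2 groups were separate and the change was −0.46 ± 0.06 (adjusted p = 5.27e-10). Mdm4 had 59.2 and 57.5 CPM against 60.8 and 67.3 CPM, with no call at −0.10 ± 0.07 (adjusted p = 0.239). Without knockdown control replicate 1 it passed, at −0.17 (adjusted p = 0.0481); over its 13 alternatives the adjusted p ran from 0.0481 to 1.

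Ccng1 and Phlda3 were the 2 members that rose. Phlda3 had 166.2 and 169.5 CPM with knockdown against 98.4 and 96.1 CPM. Both knockdown libraries were higher, by 0.82 ± 0.05 (adjusted p = 2.53e-21). Ccng1 had 110.1 and 110.0 CPM against 87.2 and 85.5 CPM, a rise of 0.39 ± 0.06 (adjusted p = 5.3e-08). Trp53inp1 had 13.1 and 10.2 CPM against 13.3 and 12.3 CPM, where the groups overlapped (−0.10 ± 0.14, adjusted p = 0.596). Sesn1 was low, with 3.55 and 4.31 CPM against 3.49 and 2.47 CPM, and its value of 0.44 ± 0.26 did not pass (adjusted p = 0.152). It had 44 to 82 counts a library, and over 13 alternatives its value ran from 0.21 to 0.71 with an adjusted p from 0.0577 to 1.

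Trp53 had 159.1 and 174.3 CPM with knockdown against 228.1 and 231.7 CPM, a fall (−0.43 ± 0.05, adjusted p = 1.75e-11). Cdkn2a, whose product Arf frees p53 from Mdm2, had 0 counts in all 4 libraries of the knockdown set and 4963 to 6072 counts in each library of the other sets. Of 21 regulators tested, 8 rose and 4, Trp53 among them, fell. Those that rose included Daxx at 2.52 ± 0.06 and Pml at 2.33 ± 0.06, a pair of proteins of nuclear bodies. Atm, a damage kinase, was at 1.03 ± 0.08. Death targets were mixed, with 6 of 12 higher and 3 lower: the exonuclease gene Aen rose by 0.89 ± 0.05 on the log2 scale and Bbc3 fell by 1.53 ± 0.06. Repair and metabolism targets were mixed too, with 7 of 25 higher and 8 lower, Ephx1 at 0.68 ± 0.05 and Gadd45a at −1.81 ± 0.07. The medians of these lists were 0.11, 0.17 and 0.05.

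Of the 16 immediate early genes tested 13 fell and 0 rose, with a median of −1.58, Egr1 by 3.08 ± 0.05 on the log2 scale. Integrated stress response genes fell in 11 of 17 cases and rose in 3, with a median of −0.34. Their part in the fall of the 5 members was not tested, nor was that of the fibroblast markers, of which 2 rose and 5 fell among 10 tested. Cell cycle genes rose in 27 of 34 cases and 1 fell, with a median of 0.50, such as Ccne1, the cyclin of entry into S phase, at 1.81 ± 0.09 and Mcm6, a subunit of the replicative helicase, at 0.84 ± 0.05.

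**Figure D3:**
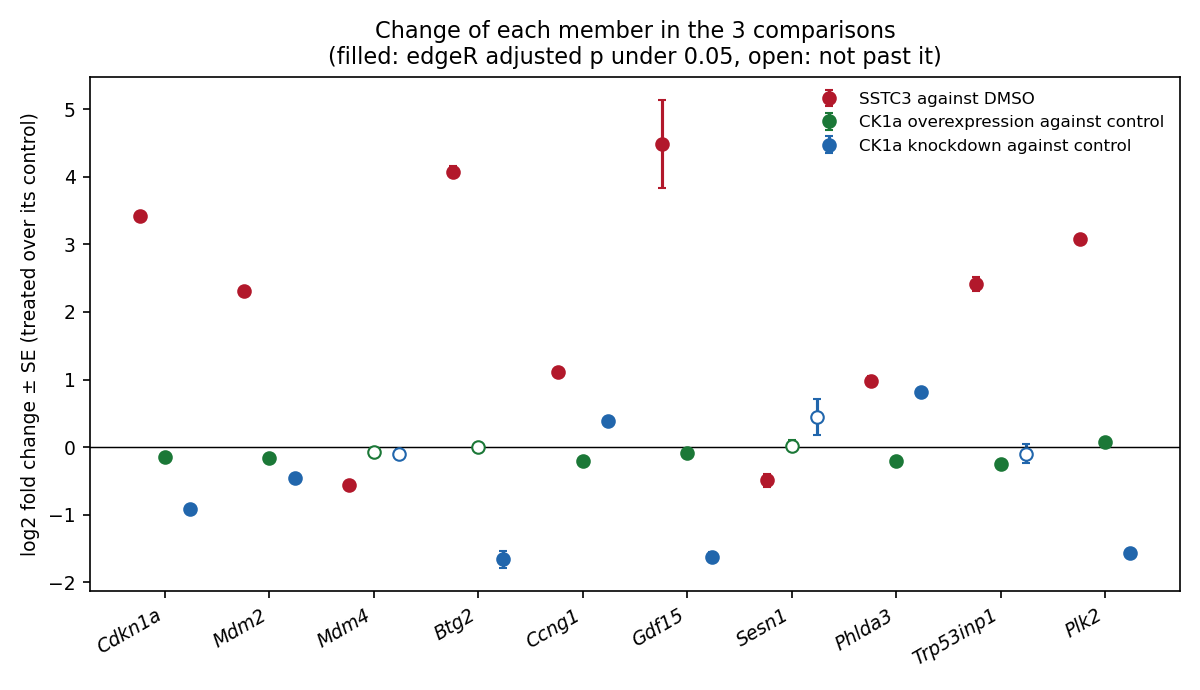
Log2 fold change of each member (treated over its own control, y axis) with its SE in the 3 comparisons; filled points passed the adjusted p of 0.05 and open points did not. With SSTC3, 8 points lie above 0 and 2 below; with knockdown Cdkn1a, Mdm2, Btg2, Gdf15 and Plk2 lie below 0 and Ccng1 and Phlda3 above it; the overexpression points all lie within −0.24 and 0.08.

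The last comparison was labelled as raising CK1α in MEF. In the libraries labelled CK1a overexpression the members differed little from their controls: 6 fell, 1 rose and 3 did not pass, and the largest change, in Trp53inp1, was 1.18-fold. Over all 13958 genes tested, 5.78% were called higher and 7.57% lower. The median of the members was −0.12 and that of all genes tested 0.00.

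Trp53inp1 fell the most, from 227.2 and 230.4 CPM in the controls to 189.9 and 200.6 CPM (−0.24 ± 0.04, adjusted p = 3.7e-06). Ccng1 had 631.4 and 616.4 CPM against 701.7 and 721.1 CPM (−0.20 ± 0.03, adjusted p = 1.13e-07). Phlda3 had 284.3 and 276.5 CPM against 318.4 and 319.6 CPM (−0.20 ± 0.03, adjusted p = 1.27e-05). In these 3 genes both treated libraries lay below both controls, a separation whose share over all genes was not counted. Mdm2 had 959.9 and 954.0 CPM against 1048 and 1067 CPM (−0.16 ± 0.02, adjusted p = 2.64e-06). Cdkn1a had 670.3 and 637.6 CPM against 725.7 and 712.0 CPM (−0.15 ± 0.03, adjusted p = 6.09e-05). The groups were apart in both genes as well, and the log2 fold changes were smaller in size than with SSTC3 or knockdown.

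Calls on Gdf15 and Plk2 were fragile. Gdf15 had 407.8 and 404.3 CPM against 431.5 and 426.0 CPM (−0.09 ± 0.03, adjusted p = 0.0292). Plk2 had 741.4 and 777.4 CPM against 705.3 and 719.6 CPM (0.08 ± 0.03, adjusted p = 0.0389). Both calls ended with the replicate block (adjusted p = 0.0694 and 0.0882), with DESeq2 (0.158 and 0.172) and with all 12 libraries in 1 fit (0.196 and 0.258). They also ended without CK1a overexpression replicate 2, without control replicate 1 and without control replicate 2. The log2 fold changes then were −0.08, −0.08 and −0.1 for Gdf15 and 0.05, 0.07 and 0.1 for Plk2. Over their 13 alternatives the adjusted p ran from 0.0213 to 1 for Gdf15 and from 0.00291 to 1 for Plk2. Btg2 (0.00 ± 0.04, adjusted p = 0.977), Mdm4 (−0.07 ± 0.04, adjusted p = 0.319) and Sesn1 (0.02 ± 0.08, adjusted p = 0.912) did not pass.

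Trp53 had 379.0 and 385.9 CPM against 398.2 and 382.8 CPM and did not pass (−0.04 ± 0.03, adjusted p = 0.396). Targets of p53 in cell death fell in 6 of 13 cases and rose in 1, with a median of −0.14, such as Perp, a membrane protein, at −0.23 ± 0.04 and Bax, which opens the mitochondrial membrane, at −0.25 ± 0.05. Targets in repair and metabolism fell in 10 of 26 cases and rose in 1, with a median of −0.14, such as the adenylate kinase gene Ak1 at −0.32 ± 0.04. Regulators were called in 5 of 22 cases, 1 higher and 4 lower, with a median of −0.01. Of 34 cell cycle genes 6 were higher and 2 lower. Of 17 immediate early genes 6 were higher and 0 lower, with Egr1 at 0.52 ± 0.04, and of 17 genes of the integrated stress response 8 were higher and 1 lower. The fibroblast markers fell in 7 of 10 cases in the same libraries, Vim by 0.32 ± 0.02 on the log2 scale, and whether this has a part in the lower p53 targets was not tested. In bulk samples, fewer cells of a type and less RNA per cell cannot be told apart.

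**Figure D4:**
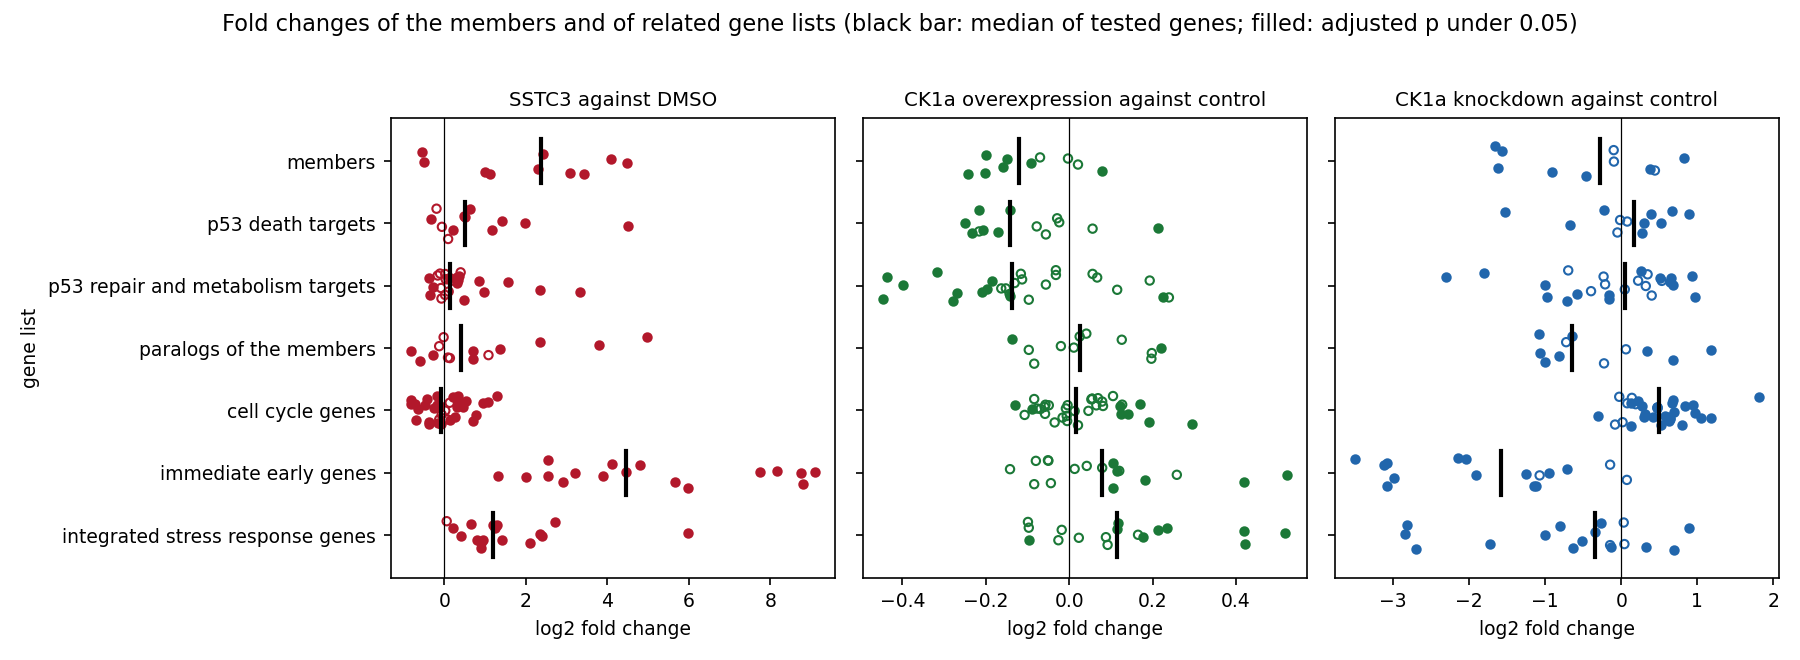
Log2 fold change (x axis, a different scale in each panel) of the members and of 6 related gene lists in the 3 comparisons; each point is a tested gene, filled where the adjusted p was under 0.05, and black bars are medians. The immediate early genes lie to the right of 0 with SSTC3 (median 4.46) and mostly to the left with knockdown (−1.58), and the median of the members is 2.36, −0.12 and −0.28 in the order of the panels.

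The differences between the comparisons were tested as contrasts in 1 fit of all 12 libraries, which share no control. SSTC3 and knockdown differed in all 10 members, where 45.1% of the 17105 genes tested were called. Plk2 differed by 4.68 ± 0.06, Cdkn1a by 4.37 ± 0.06 and Mdm2 by 2.79 ± 0.06 in log2 units. Ccng1 rose in both comparisons, and more with SSTC3, by 0.76 ± 0.07 (adjusted p = 2.25e-17). For Phlda3, which also rose in both, the difference of 0.19 ± 0.08 (adjusted p = 0.0325) did not pass in 12 of 14 alternatives, whose adjusted p ran from 0.0314 to 0.167. SSTC3 and overexpression differed in all 10 members (32.7% of all genes), Cdkn1a by 3.57 ± 0.06. Knockdown and overexpression differed in 7 of 10 (35.1% of all genes): Cdkn1a, Mdm2, Btg2, Gdf15 and Plk2 were lower and Ccng1 and Phlda3 higher with knockdown, and Mdm4, Sesn1 and Trp53inp1 did not pass.

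Across the 6 groups each member was highest in the overexpression set, in its control group for 7 genes and in the libraries labelled CK1a overexpression for Btg2, Sesn1 and Plk2. These levels are a description, since the sets differ in cells and in the features listed, and the overexpression files hold 0 mitochondrial counts where such counts make up 1.76% and 1.34% of the other sets. The lowest group was DMSO for Cdkn1a, Mdm2, Ccng1, Gdf15, Phlda3, Trp53inp1 and Plk2, the CK1a knockdown group for Mdm4 and Btg2, and the knockdown control for Sesn1. From the highest to the lowest group the mean spanned 18.3-fold in Cdkn1a, 14.7-fold in Mdm2, 26.1-fold in Btg2 and 2.38-fold in Mdm4, the narrowest of the members. Gdf15 had the widest span, from 428.7 CPM in the overexpression control to 0.0887 CPM with DMSO, where it had only 1 and 2 counts. SSTC3 brought Cdkn1a to 405.8 ± 11.1 CPM (SD, n = 2), above the knockdown control at 338.5 ± 11.4 CPM and below the overexpression control at 718.8 ± 9.68 CPM. Neighbours in the order whose libraries overlapped were the 2 groups of the overexpression set for Btg2 and Sesn1, DMSO and knockdown for Btg2 and Trp53inp1, and knockdown and its control for Trp53inp1. In the other pairs of neighbours the libraries did not overlap. How often this holds over all genes was not counted, so it cannot be read as particular to the members.

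Per kilobase of exon, the members can be set against each other, but only roughly. The length joins all annotated exons of a gene, whether or not these cells use them. In the overexpression control 5 genes lay close together, Gdf15 at 231.5 ± 2.09, Mdm2 at 208.0 ± 2.63, Phlda3 at 204.6 ± 0.547, Ccng1 at 202.6 ± 3.90 and Cdkn1a at 202.3 ± 2.72 CPM per kilobase, while Mdm4 and Sesn1 were lowest at 9.40 ± 0.364 and 8.85 ± 0.356. With DMSO the leading member was Phlda3 at 22.3 ± 0.715 CPM per kilobase, and with SSTC3 it was Cdkn1a at 114.2 ± 3.13. In the knockdown controls the leading member was Cdkn1a at 95.3 ± 3.21, and with knockdown it was Phlda3 at 107.7 ± 1.5 CPM per kilobase.

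The genes with the pattern most like Cdkn1a were sought among 11718 genes tested in all 3 comparisons, by the Euclidean distance of log2(CPM + 1) centred within each set over the 12 libraries. Nearest was Tnfaip3, an inhibitor of NF-κB, at a distance of 0.33, with log2 fold changes of 3.68, 0.06 and −1.10 for SSTC3, overexpression and knockdown. Epha2, a receptor kinase, followed at 0.38 and Junb, a subunit of AP-1, at 0.41. Nearest to Mdm2 were Itga6, an integrin, at 0.26, Mafk, a small Maf factor, at 0.30 and Klf10 at 0.32. Klf10 had changes of 2.29, 0.13 and −0.50.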

How the data were processed

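Poly(A) RNA was sequenced in paired reads, per the labels' protocols. The deposited files hold raw whole-number counts per Ensembl gene, made with HISAT2 and featureCounts on mm10, per the submitters' processing notes; the sources used here give no versions, annotation or strand setting. Symbols, positions and exon lengths came from GENCODE M21 (mm10). Ddit3, carried by 2 gene identifiers, was left out.

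From these counts, each comparison was fitted on its own 4 libraries with edgeR 4.0.16 in R 4.3.3 (filterByExpr, TMM factors, robust quasi-likelihood F test, no block), two-sided. Fits covered all genes, and the 10 members were read from them; all 10 passed the filter in every comparison. SE is the absolute log2 fold change divided by the square root of F and can be too small at low counts. Contrasts between comparisons used 54100 shared features. The procedure was tested on simulated data. Replicates of a group differed by 2.29 to 3.61 chi-square per degree of freedom, above sampling noise.

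Alternatives were DESeq2 1.42.0, limma-voom (limma 3.58.1), scaling by RLE factors or by library totals, no filter, at least 1 CPM in 2 libraries, a replicate block, all 12 libraries in 1 fit, a minimum change of 2-fold and leaving out each library. The members and the gene lists were chosen with earlier results of these data known. Named genes are the members, Csnk1a1, Trex1, Trp53, up to 4 genes per list and comparison with the smallest adjusted p, and the 3 nearest patterns of Cdkn1a and Mdm2; Adgre1, Itgam, Cdkn2a, Ccnb1 and AC167363.2, and the paralogs outside this rule, were named after their values were seen.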

Additional observations from a re-analysis of the deposited data

Results flagged for a closer look

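The effects of 2 comparisons differed in 27 tests of members, each by its contrast in the fit of all 12 libraries (edgeR, adjusted p under 0.05 over all genes). Values are differences of log2 fold changes. Between SSTC3 and knockdown they were 6.14 for Gdf15, 5.77 for Btg2, 4.68 for Plk2, 4.37 for Cdkn1a, 2.79 for Mdm2, 2.54 for Trp53inp1, 0.76 for Ccng1 and 0.19 for Phlda3, all higher with SSTC3. They were −0.43 for Mdm4 and −0.91 for Sesn1, both lower with SSTC3. Gdf15 rests on 3 counts with DMSO, and the difference of Phlda3 failed in 12 of 14 alternatives. Sesn1 rests on 44 to 82 counts a library in the knockdown set, where its own change of 0.44 ± 0.26 did not pass.

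Between SSTC3 and the libraries labelled CK1a overexpression the differences were 4.58 for Gdf15, 4.08 for Btg2, 3.57 for Cdkn1a, 2.99 for Plk2, 2.65 for Trp53inp1, 2.46 for Mdm2, 1.31 for Ccng1, 1.18 for Phlda3, −0.49 for Mdm4 and −0.52 for Sesn1. Between knockdown and those libraries they were −1.69 for Btg2, −1.68 for Plk2, −1.56 for Gdf15, −0.80 for Cdkn1a, −0.34 for Mdm2, 0.56 for Ccng1 and 0.99 for Phlda3. The cells, files and controls differ between the sets, and their part in these differences was not tested.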

How the results depend on the processing

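No member value changed direction past the threshold under any alternative. With SSTC3, 126 of 130 alternative values of the members kept their side of the threshold and 4 lost it; with the overexpression label 109 kept it and 21 lost it; with knockdown 125 kept it, 4 lost it and 1 gained it. Of the differences between comparisons, 128 of 140 kept it for SSTC3 and knockdown, the 12 losses being Phlda3, and 140 of 140 in each of the others.

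Requiring a change of at least 2-fold by its construction left fewer calls. With SSTC3 it called 6 members, 0 of them lower, and 627 of all genes (7578 without it), of which 570 were higher and 57 lower. With knockdown it called 3 members, 0 higher and 3 lower, and 632 of all genes (8113 without it), of which 318 were higher and 314 lower. With the overexpression label it called 0 members, 0 higher and 0 lower, and 1 of all genes. There the count of higher members, 1 in the report, was also 0 with DESeq2 and with all 12 libraries in 1 fit, and 0 to 1 when a library was left out. The count over all genes, 1863, became 607 with DESeq2, 1188 with all 12 libraries in 1 fit and 1065 to 1478 when a library was left out; for the first 2 the cause was not tested, and leaving out a library leaves fewer samples. A lone library in a group was assumed to vary like the rest.

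Same-numbered libraries did not deviate together across genes (correlations of −0.050, −0.023 and −0.036). This shows no shared deviation, but it cannot exclude that the numbers pair the samples, since each group gives a single difference between libraries. With the replicate block the overexpression label had 5 members called, 0 higher and 5 lower, and 1768 of all genes; the block left 10 members called with SSTC3 and 7 with knockdown, and the difference of Phlda3 was lost.

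Gdf15 in the SSTC3 set (1 to 40 counts a library) and Sesn1 in the knockdown set (44 to 82 counts a library) rest on the fewest counts of the members. Whether depth or the spread between 2 libraries kept Sesn1 from a call was not tested.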

Other observations

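Relatives of the members within their gene families did not all follow them. With SSTC3, 6 of 14 tested rose and 3 fell, and with knockdown 3 of 11 rose and 5 fell. Sesn2, a sestrin also induced by the stress factor ATF4, rose by 2.35 ± 0.06 on the log2 scale with SSTC3, where Sesn1 (−0.49 ± 0.10) and Sesn3 (−0.28 ± 0.09) fell, and with knockdown Sesn2 fell by 1.00 ± 0.06 and Sesn3 rose by 0.34 ± 0.14. Among the polo-like kinases, Plk3 followed Plk2, at 3.78 ± 0.08 with SSTC3 and −1.08 ± 0.09 with knockdown, while the mitotic kinase Plk1 was at −0.83 ± 0.05 and 1.18 ± 0.08. Phlda1, a relative of Phlda3, rose by 4.97 ± 0.11 with SSTC3 and fell by 1.07 ± 0.07 with knockdown, whereas Phlda3 rose in both. The kinase inhibitor gene Cdkn1b, a relative of Cdkn1a, was at −0.60 ± 0.06 with SSTC3. Btg1 followed Btg2, at 0.69 ± 0.06 with SSTC3 and −0.64 ± 0.05 with knockdown, and Btg3 was at 1.36 ± 0.07 with SSTC3. Ccng2 was at 0.69 ± 0.08 with SSTC3, where Ccng1 rose too, and at −0.81 ± 0.15 with knockdown, where Ccng1 rose. In the set labelled CK1a overexpression, 2 of the 11 relatives tested passed, Cdkn1b (0.22 ± 0.06) and Btg1 (−0.14 ± 0.04).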
